A study of Mus musculus with 4 samples.

Results

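The acrosome is a secretory vesicle that covers the front of the sperm nucleus and is built from Golgi-derived vesicles in round spermatids, after meiosis is complete. Its contents include proteases and hyaluronidase, its membranes carry proteins used in binding and fusion with the egg, and a further set of proteins shapes the vesicle and fixes it to the nucleus. Some of these genes are known to be transcribed already in meiotic prophase, in pachytene spermatocytes, and others mainly in spermatids. The RNA of 10 acrosome genes, Acr, Acrbp, Acrv1, Spam1, Spaca1, Spaca3, Izumo1, Zpbp, Zpbp2 and Dpy19l2, was followed here in cultured pachytene spermatocytes. They were taken by gene symbol from a table of 23420 named genes, all 10 had a row, and all 10 were among the 10316 genes that passed the filter of a mean above 1 TPM in at least 1 condition. TPM scales each gene's reads by transcript length and then to a common total in each library. Levels can thus be compared between genes, and between libraries as shares of that total.

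Pachytene spermatocytes were sorted by flow cytometry, with a DNA-binding dye, from testes of wild-type C57BL/6 mice that were 23 weeks old. The cells were then cultured for 24 h with the solvent DMSO (Ctrl, 2 libraries) or with 10 µM AZ20 (2 libraries), an inhibitor of the ATR kinase, which starts DNA damage signalling and, in these cells, acts in the silencing of the X and Y chromosomes. The labels give a culture temperature of 34 °C and the study's methods 32 °C. Cells of a mouse were divided between both conditions according to the methods. Libraries with the same replicate number were therefore taken to share their source animal, which the labels do not state. Each condition rests on 2 replicates. Reads on genes, recovered from the steps between TPM values and read as lower bounds, numbered 13858272 and 15729090 in Ctrl and 20094702 and 18404522 in AZ20.

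Markers of pachytene spermatocytes had a summed TPM of 10500, 10700, 10500 and 10200 over 7 genes. These values are for Ctrl replicates 1 and 2 and AZ20 replicates 1 and 2. Most of each sum was Ldhc, with 6060, 5830, 6180 and 5220 TPM in the same order. The axial element gene Sycp3 had 2060, 2420, 2560 and 2920 TPM, higher in AZ20 without overlap, as were 26.4% of all genes tested. Tex101 had 524, 959, 449 and 375 TPM, lower in AZ20 without overlap, as were 11.7%. Ccna1 was far less abundant, with 17.3, 14.8, 17.3 and 6.52 TPM. Markers of round and elongating spermatids were also detected and were unequal between libraries. Their summed TPM over 8 genes was 390 and 157 in Ctrl and 799 and 264 in AZ20, so that replicate 1 exceeded replicate 2 by 2.48-fold in Ctrl and by 3.02-fold in AZ20, and AZ20 exceeded Ctrl by 2.05-fold in the first pair and 1.68-fold in the second. Markers of spermatogonia summed to 7.99 to 20.5 TPM in Ctrl and 12.7 to 15 in AZ20, mostly Uchl1, with Stra8 and Dmrt1 listed at 0. Sertoli cell markers summed to 4.63 to 11.1 and 5.93 to 8.31 TPM, mostly Ctsl, with Sox9, Wt1 and Rhox5 listed at 0. Leydig cell, macrophage and peritubular myoid markers each summed to under 3 TPM in every library, with the steroidogenic genes Cyp17a1 and Cyp11a1 listed at 0. In these bulk libraries a smaller number of cells of a type and less RNA per cell cannot be told apart.

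The question put to the 10 genes was which of them were already high in these pachytene cell libraries and which were not. Level alone does not separate pachytene genes from spermatid genes here. Of the 8 spermatid markers, 5 also had at least 10 TPM in every library. Acr, Zpbp2, Acrbp, Dpy19l2 and Zpbp had at least 10 TPM in every library and formed a high class of 5 genes. Spaca1, Spaca3, Acrv1 and Izumo1 had at least 1 TPM in every library and formed an intermediate class of 4. Spam1 fell below 1 TPM in 2 libraries and was the 1 gene of the low class. The classes were made from the values themselves and are a description without a test. The lowest value inside the high class was 23.2 TPM (Zpbp, Ctrl replicate 2), and the gene next outside it, Spaca1, had a lowest value of 5.41 TPM. A limit of 20 TPM gave the same 5 genes, whereas a limit of 5 TPM gave 6 by adding Spaca1. The 5 high genes held 93.3% to 97.5% of the summed TPM of all 10 genes, which was 725 and 645 in Ctrl and 729 and 539 in AZ20.

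**Figure D1:**
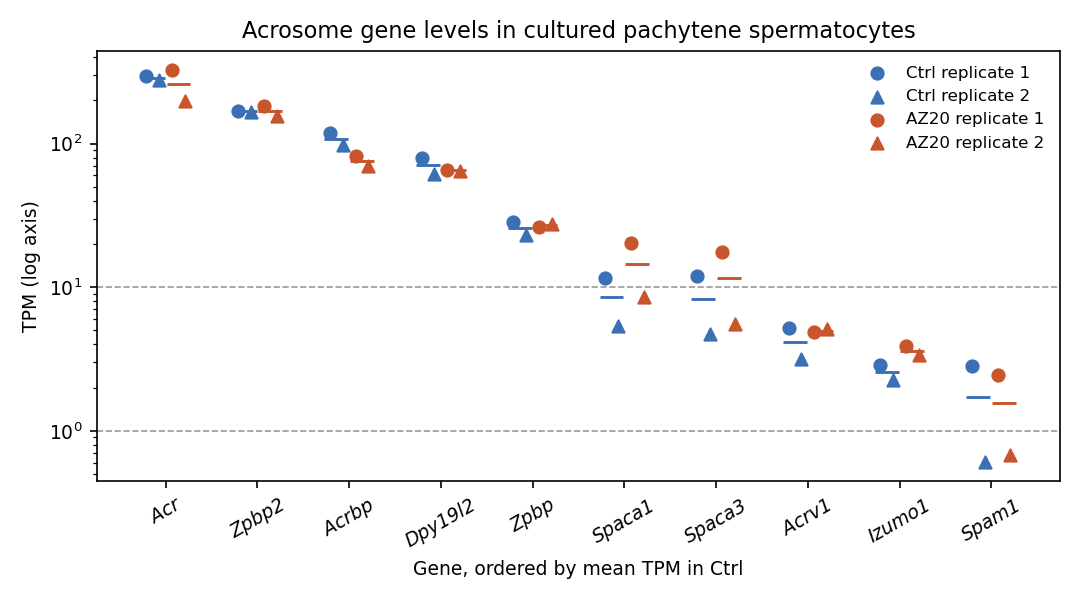
TPM on a log axis for each of the 10 acrosome genes, ordered by mean TPM in Ctrl. Each point is a library (circles, replicate 1; triangles, replicate 2; blue, Ctrl; orange, AZ20), short bars are the means of the 2 libraries and dashed lines mark 1 and 10 TPM; the 5 genes on the left lie above 10 TPM in every library, and Spam1 crosses 1 TPM.

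The window of 250 bases before the RefSeq transcription start (GRCm38.p6, the build of the files) was read for 9 of the 10 genes, to show what lies upstream of genes that differed between libraries. Acr had no entry. Short words bound by factors known from male germ cells were looked for on both strands. TGACGT, the core of the cAMP response element bound by CREM, was in 6.47% of 32851 mouse promoter windows, AACNGT, the core bound by MYB factors such as MYBL1, was in 22.3%, and GTTGCC, a part of the X-box bound by RFX factors, was in 10.4%. Capitals mark matches below. A match is a description of letters and not a binding site, and the lack of a match says only that these letters are not in the window.
Izumo1, chr7:45621561-45621810, plus strand: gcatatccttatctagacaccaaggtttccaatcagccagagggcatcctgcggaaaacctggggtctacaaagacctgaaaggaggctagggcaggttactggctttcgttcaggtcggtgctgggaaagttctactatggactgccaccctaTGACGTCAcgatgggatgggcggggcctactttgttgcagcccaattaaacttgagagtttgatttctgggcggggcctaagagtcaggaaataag
Acrbp, chr6:125049897-125049926, plus strand: cctcaccttctgTGACGTagcagccgcgcc
Spam1, chr6:24790938-24791187, plus strand: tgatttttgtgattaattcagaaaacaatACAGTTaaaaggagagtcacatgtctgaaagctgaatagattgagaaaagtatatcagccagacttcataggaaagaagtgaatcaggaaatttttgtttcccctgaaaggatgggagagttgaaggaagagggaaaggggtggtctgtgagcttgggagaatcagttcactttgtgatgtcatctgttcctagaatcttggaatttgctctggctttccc
Spaca3, chr11:80858113-80858362, plus strand: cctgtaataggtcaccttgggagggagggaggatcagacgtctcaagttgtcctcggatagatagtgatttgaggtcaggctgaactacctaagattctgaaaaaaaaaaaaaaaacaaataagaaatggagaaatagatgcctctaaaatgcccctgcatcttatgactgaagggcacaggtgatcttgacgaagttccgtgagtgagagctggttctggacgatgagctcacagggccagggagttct
Spaca1, chr4:34050192-34050315, minus strand: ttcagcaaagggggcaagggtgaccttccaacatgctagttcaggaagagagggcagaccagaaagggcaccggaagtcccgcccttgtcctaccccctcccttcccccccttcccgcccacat

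Izumo1 was higher in AZ20 without overlap, as were 26.4% of all genes, and Acrbp was lower without overlap, as were 11.7%. Neither gene was called. Both windows held TGACGT, and a link of this word to the values was not tested. In Izumo1 the word stood on both strands in overlap, 89 to 96 bases before the start, and together the matches spelled TGACGTCA. In Acrbp it stood on the plus strand 13 to 18 bases before the start, shown in the last 30 bases of the window, which lie inside the GENCODE span of Acrbp because its annotated start is farther upstream than that of RefSeq, and GTTGCC stood on the minus strand 194 to 199 bases before the start. Spam1, Spaca3 and Spaca1 are shown because replicate 1 was more than 2-fold above replicate 2 in each. Spam1 held AACNGT on the minus strand, 216 to 221 bases before the start, and no match was found in Spaca1 or Spaca3 at either of the 2 starts RefSeq gives for each. For Spaca1 the 124 bases upstream of its GENCODE transcripts are printed. Of the genes not printed, Acrv1 held AACNGT on the minus strand at 234 to 239 bases. Dpy19l2, a minus-strand gene, held it on the gene's own strand at 208 to 213 bases, and Zpbp and Zpbp2 had no match.

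Among the genes of the acrosome matrix, Acr was the most abundant of the 10. Acr (ENSMUSG00000022622.5, chr15:89568326-89574585, plus strand) encodes acrosin, a serine protease stored as proacrosin. Its TPM was 295 and 279 in Ctrl and 324 and 199 in AZ20, the mean in Ctrl being 287 ± 11.3 (SD, n = 2), above 93.2% of the genes tested. AZ20 replicate 1 was the highest library and AZ20 replicate 2 the lowest, so the conditions overlapped. Acrbp (chr6:125049689-125063267, plus strand) encodes the acrosin-binding protein, which holds proacrosin in the vesicle. Its TPM was 118 and 97.7 in Ctrl and 82.3 and 69.6 in AZ20, and both AZ20 libraries lay below both Ctrl libraries. Exons of Acrbp overlap those of Gm44597 on the same strand and 4930557K07Rik on the other. Where they overlap, reads of Gm44597 cannot be told apart from those of Acrbp by strand. For 4930557K07Rik the sources used here do not state whether strand was used in counting.

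Acrv1 (chr9:36693220-36698843, plus strand) encodes SP-10, a matrix protein of the acrosome known from round spermatids. Its TPM was 5.16 and 3.17 in Ctrl and 4.90 and 5.08 in AZ20, from 40 to 78 reads a library. Ctrl replicate 2 was the lowest library, and the other 3 were close to each other. Spam1 (chr6:24791188-24801048, plus strand) encodes the sperm hyaluronidase PH-20. Its TPM was 2.84 and 0.610 in Ctrl and 2.45 and 0.679 in AZ20, from 61, 15, 76 and 19 reads. The libraries split by replicate number, with replicate 1 high and replicate 2 low in both conditions.

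Among the genes of acrosomal membranes and gamete fusion, none was in the high class. Spaca1 (chr4:34024874-34050191, minus strand) encodes a membrane protein needed for the shape of the acrosome. Its TPM was 11.5 and 5.41 in Ctrl and 20.2 and 8.59 in AZ20. Spaca3 (chr11:80858365-80867814, plus strand) encodes a lysozyme-like protein of the acrosome, with 11.9 and 4.69 TPM in Ctrl and 17.7 and 5.52 in AZ20. In both genes each replicate 1 library was above each replicate 2 library, and AZ20 replicate 1 was the highest of all. Izumo1 (chr7:45621811-45628823, plus strand) encodes the sperm protein that binds the egg receptor JUNO before fusion. Its TPM was 2.85 and 2.26 in Ctrl and 3.87 and 3.37 in AZ20, from 43, 39, 84 and 66 reads, and both AZ20 libraries lay above both Ctrl libraries. Exons of Izumo1 overlap those of Rasip1 on the same strand.

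Zpbp2, Zpbp and Dpy19l2, which act in forming or anchoring the acrosome, were in the high class. Zpbp2 (chr11:98551097-98558665, plus strand) and Zpbp (chr11:11279626-11462408, minus strand) encode related zona pellucida binding proteins that act in acrosome formation. Zpbp2 had 169 and 167 TPM in Ctrl and 182 and 155 in AZ20, whereas Zpbp had 28.4 and 23.2 in Ctrl and 26.4 and 27.5 in AZ20. For both genes the AZ20 and Ctrl values overlapped, and every library had more Zpbp2 than Zpbp. Exons of Zpbp overlap those of Spata48 on the other strand. Dpy19l2 (chr9:24557047-24696293, minus strand) encodes an inner nuclear membrane protein that ties the acrosome to the nucleus, and it had 79.9 and 61.8 TPM in Ctrl and 65.6 and 64.6 in AZ20. Ctrl replicate 1 was the highest library and Ctrl replicate 2 the lowest, with both AZ20 libraries in between.

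The order of the mean levels was the same in Ctrl and AZ20, from Acr through Zpbp2, Acrbp, Dpy19l2, Zpbp, Spaca1, Spaca3, Acrv1 and Izumo1 to Spam1. In Ctrl the values of each of the 5 high genes lay apart from those of the gene next in order. Spaca1 and Spaca3 (means of 8.48 and 8.31 TPM), Spaca3 and Acrv1 (4.16 TPM), and Izumo1 and Spam1 (2.56 and 1.72 TPM) did not differ beyond their spread in Ctrl. In AZ20 Spaca1 and Spaca3 (14.4 and 11.6 TPM) were the 1 pair of neighbours whose values overlapped. Set against a median of 9.50 and 8.92 TPM over the genes tested in Ctrl, the high class lay above the typical gene and Acrv1, Izumo1 and Spam1 lay below it, with Spaca1 and Spaca3 near it.

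The comparison of AZ20 with Ctrl asked whether acrosome genes changed when ATR was inhibited. None of the 10 genes was called higher or lower. The call, from limma on log2(TPM + 1), asked for a 2-fold or larger difference together with an adjusted p (Benjamini-Hochberg, over all genes tested) below 0.05, and 2.33% of the genes tested met it. Of the 240 genes called, 235 were higher and 5 lower. On the X chromosome, where none of the 10 genes lies, were 216 of the 240. In the same limma fit 1 of the 10 had an unadjusted p under 0.05, against 9.16% of all genes. Voom on the recovered reads also called none of the 10. The median log2 change of the 10 genes was 0.03, beside 0.07 over all genes tested, and its direction rested on single libraries, since it was -0.15 without Ctrl replicate 2, -0.12 without AZ20 replicate 1, 0.20 without AZ20 replicate 2 and 0.35 without Ctrl replicate 1. Quantile normalization moved the median of all genes by -0.14 and turned the median of the 10 genes to -0.04; relative to the median of all genes it was -0.04 before and 0.03 after.

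Acrbp had the lowest unadjusted p of the 10 genes in the fit without the replicate block, whereas with the block the limma p of Spaca1 (0.0155) was below that of Acrbp (0.0312). Its mean was 108 ± 14.5 TPM in Ctrl and 76.0 ± 9.0 in AZ20 (SD, n = 2 each), which is 0.704-fold. Its log2 change was -0.50 (SE 0.19), with a 95% interval of -0.96 to -0.04 and an unadjusted limma p of 0.0369, which became 0.494 after adjustment over all genes. The change was -0.52 in the first pair and -0.48 in the second. Acrbp was the 1 gene of the 10 that was lower in AZ20 without overlap, whereas 11.7% of all genes were. It was not called under any alternative.

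Izumo1 was the 1 gene of the 10 that was higher in AZ20 without overlap, whereas 26.4% of all genes were. Its log2 change was 0.38 (SE 0.28, 95% interval -0.28 to 1.04, limma adjusted p = 0.791), with 0.34 in the first pair and 0.42 in the second. Spaca1 had a log2 change of 0.67 with all libraries (SE 0.46, 95% interval -0.42 to 1.76, limma adjusted p = 0.771). The value rested on single libraries, being 0.10 without AZ20 replicate 1, 0.18 without Ctrl replicate 2, 1.15 without Ctrl replicate 1 and 1.24 without AZ20 replicate 2. It was higher in AZ20 in both pairs, by 0.76 and 0.58, and once a block for the replicate number was added its limma adjusted p was 0.191. The spermatid markers had a median log2 change of 0.88, with none called (1, Prm1, with the block). Of the 8 markers, 7 were higher in AZ20 in both pairs, a count not made over all genes. Spem1 was the 1 marker higher without overlap, beside 26.4% of all genes. The part of the spermatid markers in the values of Spaca1 was not tested.

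The other 7 genes had log2 changes between -0.18 and 0.37 and limma adjusted p-values of 0.880 to 0.999. Acr had -0.18 (SE 0.24), Zpbp2 0.00 (SE 0.17), Dpy19l2 -0.11 (SE 0.20) and Zpbp 0.07 (SE 0.21). Acrv1 had 0.24 (SE 0.29), Spaca3 0.37 (SE 0.57) and Spam1 -0.05 (SE 0.53). The signs of Acrv1, Zpbp and Zpbp2 turned under quantile normalization. The 95% intervals of Acr, Zpbp2, Acrbp, Dpy19l2, Zpbp and Acrv1, 6 genes in all, lay within a 2-fold change either way on the log2(TPM + 1) scale. Those of Spaca1, Spaca3, Izumo1 and Spam1 reached past 2-fold. With the replicate block, on the same scale, the intervals of Spaca3 (-0.18 to 0.91) and Spam1 (-0.76 to 0.67) also lay within 2-fold. Those of Spaca1 (0.13 to 1.20) and Izumo1 (-0.25 to 1.01) still reached past it. The added 1 TPM shrinks changes of low genes. With voom on the recovered reads and no block, the intervals of Acrv1 (-0.91 to 1.49), Spaca3 (-1.03 to 1.92) and Spam1 (-1.97 to 2.03) reached past 2-fold. A 2-fold change of these low genes is therefore not excluded.

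**Figure D2:**
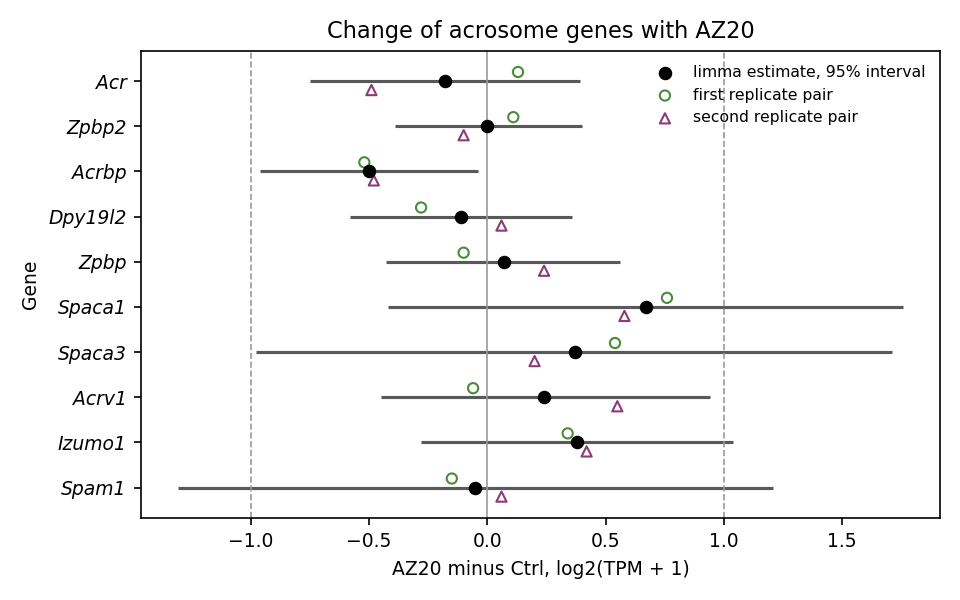
Log2 change in TPM + 1 with AZ20 for the 10 genes; black points and lines are limma estimates with 95% intervals from the fit without the replicate block, and open symbols are the change within each replicate pair, with dashed lines at 2-fold. Acrbp is the 1 gene whose interval lies below 0 (-0.96 to -0.04), and the intervals of Spaca1, Spaca3 and Spam1 are the widest.

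The libraries of each condition differed from each other, and the difference between replicate numbers 1 and 2 was taken as a second contrast, chosen after the values were seen. Spaca1 and Spaca3 were higher in replicate 1 than in replicate 2, and Spam1 was higher in replicate 1 without passing the test. This contrast compares the 2 replicate numbers, taken as source animals or isolations, and not a condition. With treatment in the fit, its p-values reflect how alike the difference was in Ctrl and AZ20, with variance information shared across genes. They do not measure the spread between animals. With the treatment kept in the limma fit, 2 of the 10 genes were called higher in replicate 1, as were 1.89% of all genes tested. Replicate 1 lay above replicate 2 without overlap in 6 of the 10 genes, against 20% of all genes.

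Spaca3 had a log2 difference of 1.35 between replicates 1 and 2 (SE 0.27, limma adjusted p = 0.00154), and the ratio of the means was 2.91, with 2.55 in Ctrl and 3.21 in AZ20. Spaca1 had a log2 difference of 1.06 (SE 0.26, limma adjusted p = 0.0179), and the ratio was 2.27, with 2.13 in Ctrl and 2.35 in AZ20. Spam1 had the largest ratio, 4.10, with 4.65 in Ctrl and 3.61 in AZ20, but at its 15 to 76 reads the log2 difference of 1.15 (SE 0.35) had a limma adjusted p of 0.0826. The calls of Spaca1 and Spaca3 were lost with voom on the recovered reads (limma adjusted p = 0.239 and 0.197) and without a treatment term (0.871 and 0.736). The other 7 genes had log2 differences of 0.11 to 0.39, among them Izumo1 with 0.20 and Acrv1 with 0.26, both of which had lower levels than Spaca3. Acr, Zpbp2 and Dpy19l2 were also higher in replicate 1 without overlap.

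The spermatid markers other than Tssk6 differed between the replicates in the same direction. Tssk6 had a log2 difference of -0.05, with 0.532 and 1.26 TPM in Ctrl and 1.9 and 1.11 in AZ20. Of the 8 markers, 5 were called higher in replicate 1, beside 1.89% of all genes tested, namely the protamine genes Prm1 and Prm2, the transition protein genes Tnp1 and Tnp2, and Tex36. With voom, 2 of them (Prm1 and Tnp2) were called, among 18 genes in all. Tnp2 had 191 and 81.0 TPM in Ctrl and 426 and 123 in AZ20, and Tnp1 had 44.4 and 10.2 in Ctrl and 65.4 and 24.9 in AZ20. In both genes replicate 1 was the higher library of each condition. The 7 pachytene markers had a median log2 difference of -0.04 between the replicates, with none called, and the 8 spermatid markers one of 1.19. The part of the spermatid markers in the values of Spaca1, Spaca3 and Spam1 was not tested.

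**Figure D3:**
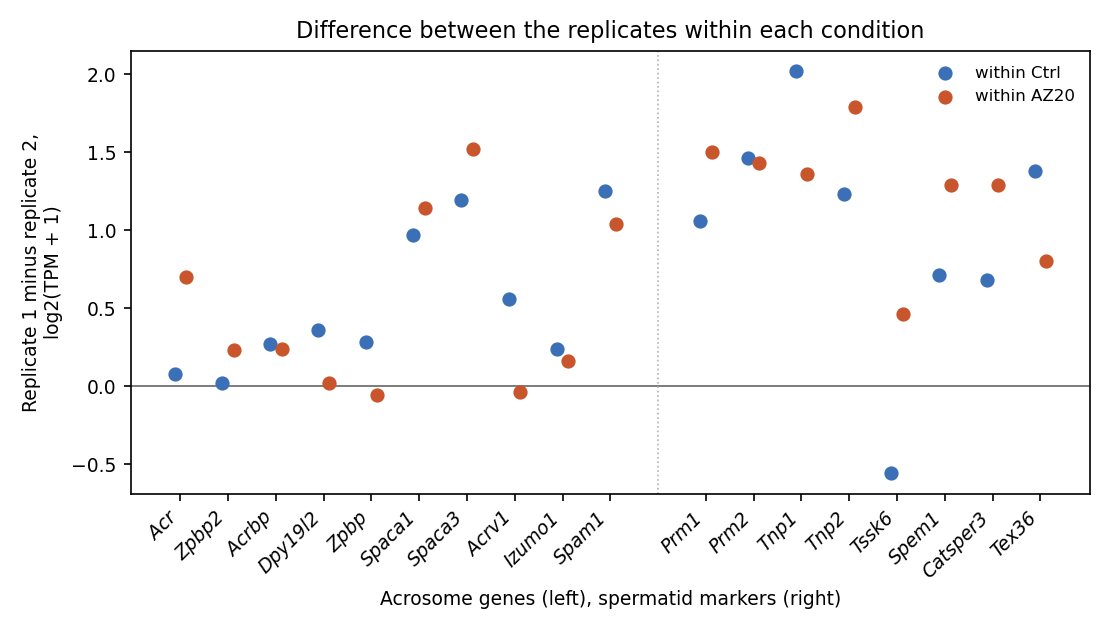
Log2 difference in TPM + 1 between replicate 1 and replicate 2 within Ctrl (blue) and within AZ20 (orange), for the 10 acrosome genes on the left and the 8 spermatid markers on the right. Spaca1, Spaca3 and Spam1 lie near 1 or above in both conditions, as do Prm1, Prm2, Tnp1 and Tnp2, and the 5 genes of the high class lie between -0.06 and 0.70.

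A wider list of 58 acrosome genes, 50 of which passed the filter, was sorted by role. None was called between AZ20 and Ctrl, and their median log2 change was 0.09. With the replicate block, 4 of them were called higher (Zp3r, Izumo2, Actl7a and Cylc1), at a rate of 4.33% over all genes tested, and with the same block in voom on the recovered reads 0 of them were. Among the 15 matrix genes tested, Dkkl1 and Spink2 were the most abundant, far above Acr. Dkkl1, an acrosomal glycoprotein gene, had 3050 and 3220 TPM in Ctrl and 2550 and 2380 in AZ20, and Spink2, a protease inhibitor gene, had 2730 and 2310 in Ctrl and 2070 and 1970 in AZ20. Both were lower in AZ20 without overlap, as were 7 of the 50 genes and 11.7% of all genes. Their log2 changes were -0.35 (limma adjusted p = 0.395) and -0.32 (limma adjusted p = 0.548). Zp3r, which encodes the matrix protein sp56, had 0.536 and 0.597 TPM in Ctrl and 2.23 and 2.92 in AZ20, a log2 change of 1.18 (SE 0.31, limma adjusted p = 0.198). Lyzl1, a lysozyme-like gene, had the second largest change of this group, 0.63 (limma adjusted p = 0.877).

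Among the 13 membrane and fusion genes tested, Adam2 (229 and 234 TPM in Ctrl, 223 and 203 in AZ20) and Adam3 (190 and 130 in Ctrl, 158 and 138 in AZ20) were the most abundant. Both encode sperm surface proteins of the ADAM family, and their log2 changes were -0.12 and -0.09. The largest changes were those of Izumo2, a paralogue of Izumo1, with 5.27 and 1.76 TPM in Ctrl and 14.6 and 6.44 in AZ20 (log2 change 1.37, SE 0.49, limma adjusted p = 0.432), and of Spaca4, with a log2 change of 0.88 (limma adjusted p = 0.621). Both AZ20 libraries of Izumo2 lay above both Ctrl libraries, as in 5 of the 50 genes and 26.4% of all genes. Its Ctrl replicate 1 was closer to AZ20 replicate 2 than to AZ20 replicate 1.

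Among the 22 genes of acrosome formation tested, Spata16 (530 and 446 TPM in Ctrl, 435 and 428 in AZ20) and Tmf1 (497 and 350 in Ctrl, 365 and 550 in AZ20), a Golgi protein gene, were the most abundant, with log2 changes of -0.17 and 0.10. Actl7a, an actin-related gene, had 0.395 and 0.692 TPM in Ctrl and 8.19 and 1.37 in AZ20 (log2 change 1.60, SE 0.61, limma adjusted p = 0.481), and 1 AZ20 library held most of its signal. Cylc1, an X-linked gene of the sperm head cytoskeleton, had 0.404 and 0.486 TPM in Ctrl and 2.03 and 2.83 in AZ20 (log2 change 1.24, SE 0.32, limma adjusted p = 0.188).

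Between the replicates, 12 of the 50 genes were called higher in replicate 1 and none lower, beside 1.89% of all genes called higher, and 27 were higher without overlap, beside 20% of all genes. The 12 called were 4 matrix genes (Prss37, Lyzl4, Lyzl1 and Spaca7), 7 membrane and fusion genes (Izumo2, Izumo3, Spaca5, Tmem190, Eqtn, 1700034O15Rik and 4930451I11Rik) and 1 gene of acrosome formation (Fam209). Lyzl4 had 8.66 and 1.74 TPM in Ctrl and 10.4 and 1.84 in AZ20, and Spaca7 had 22.5 and 4.78 in Ctrl and 29.4 and 9.11 in AZ20. In both genes each replicate 1 library was above each replicate 2 library, as in Spaca1 and Spaca3, whereas the replicates of Izumo2 overlapped. With voom, which called 18 genes in all between the replicates, none of the 50 was called. The median log2 difference was 1.13 in the membrane and fusion genes, 0.47 in the matrix genes and 0.16 in the genes of acrosome formation, beside 0.03 over all genes tested.

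**Figure D4:**
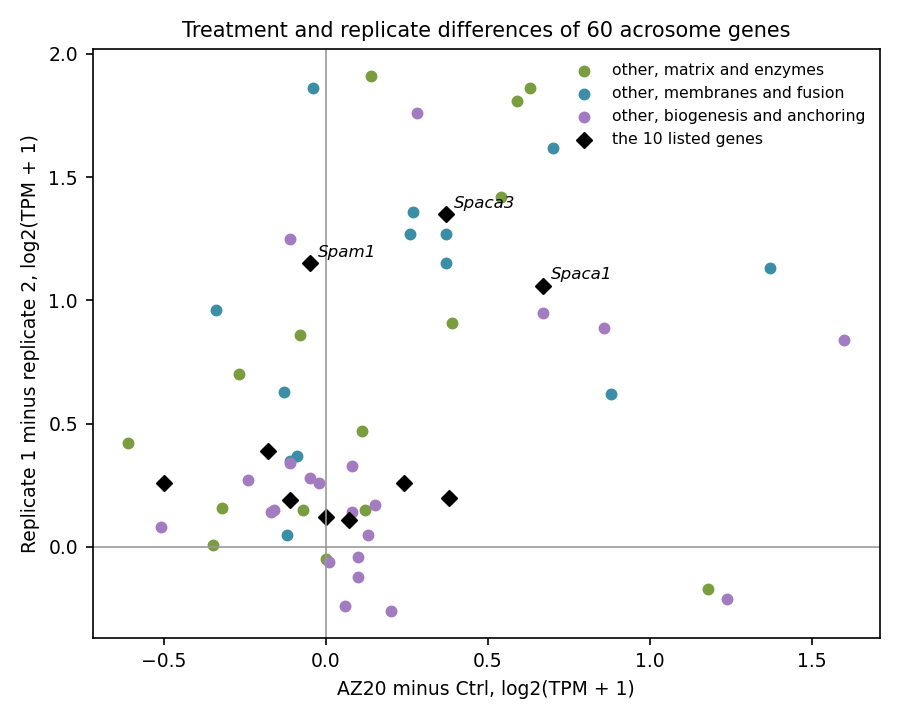
Log2 change with AZ20 (horizontal axis) against the log2 difference between replicates 1 and 2 (vertical axis), both in TPM + 1, for the 10 genes (black diamonds) and 50 other acrosome genes coloured by role. Each point is a gene; Spaca1, Spaca3 and Spam1 lie above 1 on the vertical axis, and the other 7 of the 10 genes lie under 0.4.

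Transcription factors known to act on genes of late meiosis and spermiogenesis were measured beside these genes. Crem, the activator of many spermatid genes through the cAMP response element, had 135 and 139 TPM in Ctrl and 108 and 118 in AZ20. Its log2 change was -0.28 (limma adjusted p = 0.724), and its AZ20 libraries lay below its Ctrl libraries, as in 11.7% of all genes. Mybl1, the MYB factor of pachytene spermatocytes, had 15.3 and 11.6 TPM in Ctrl and 11.4 and 17.5 in AZ20, and Rfx2 had 38.7 and 33.7 in Ctrl and 41.0 and 42.7 in AZ20. Neither was called. Tcfl5 had 148 and 120 TPM in Ctrl and 127 and 148 in AZ20, and Sox30 had 15.7 and 11.8 in Ctrl and 18.2 and 15.2 in AZ20, with log2 changes of 0.03 and 0.28 that were not called. Taf7l, the X-linked paralogue of a TFIID subunit gene, was called higher, from 0.102 and 0.851 TPM in Ctrl to 68.3 and 65.5 in AZ20, with a log2 change of 5.57 (SE 0.30, limma adjusted p = 9.3e-05).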

How the data were processed

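RNA was measured in 4 libraries, 2 of each condition, grouped by the labels. Per the labels and the methods, the authors passed paired reads through Trimmomatic 0.39 and STAR 2.5.4b (GRCm38, unique alignments), and featureCounts 2.0.1 gave counts on refGene genes. The deposited values are TPM, which the authors computed from those counts and which were not normalized further. Unique alignment can lower the values of genes with near-identical copies.

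The genes, lists and tests were chosen with earlier results of these data known. Genes with a mean above 1 TPM in either condition were fitted on log2(TPM + 1) by limma 3.58.1 (R 4.3.3) with an intensity trend. The fit was tried on simulated data with changes larger than 2-fold in genes with many reads and no replicate effect. That trial does not cover genes with few reads, smaller changes or differences between replicates. A pseudocount of 1 understates changes of low genes. Reads were recovered for all 16857 genes above 0, each value lying within 0.000127 of a whole read, but a factor common to all 4 counts of a gene is invisible in TPM, so depths are lower bounds. Counting precision follows the reads given beside low genes. Of the table's lines, 92 named no gene and were left out.

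Gene positions are from GENCODE M21. In each role group the 2 most abundant genes, the 2 with the largest absolute change and all called genes were named, as were all 10 acrosome genes and all listed transcription factors; spermatid markers and genes called between replicates were named after their values were seen. Some list genes were found by a RefSeq synonym. Libraries of the same number were taken to share a mouse, and their deviations from the condition means correlated at 0.23 over autosomal genes. The alternatives were pseudocounts of 0.1 and 0.01, no filter, a filter of 5 TPM, autosomal scaling, quantile normalization, a replicate block, no trend, voom, and leaving out each library. No exact permutation test was run, because this design allows no two-sided p below 0.333.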

Additional observations from a re-analysis of the deposited data

How the results depend on the processing

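None of the 10 genes was called between AZ20 and Ctrl under any of 14 alternatives (137 values, lowest limma adjusted p 0.191), and 16 values, in 7 of the genes, had the opposite sign. Acrbp, Spaca1 and Izumo1 kept their sign throughout. The median log2 change of the 10 genes, 0.03, moved to -0.04 under quantile normalization. It ranged from -0.15 (without Ctrl replicate 2) to 0.35 (without Ctrl replicate 1) on leaving out a library. It was also negative without AZ20 replicate 1 (-0.12), so its direction was not settled. With the replicate block, which pairs libraries of the same replicate number, 0 of the 10 genes were called. However, 4 of the other acrosome genes were called in place of 0, and 447 of all genes in place of 240. Voom with the block called 0 of the 10 genes and 0 of the other acrosome genes. Between the replicates, 2 of the 10 genes were called, against 1 under quantile normalization (Spaca3), 0 with voom on the recovered reads and 0 without the treatment term, a fit that called 0 genes at all and gave 552 genes with an unadjusted p under 0.05. These alternatives of the replicate contrast, and voom with the block, were chosen after the data were seen. The cause was not tested. At 15 to 84 reads a library for Spam1, Izumo1 and Acrv1, the depth limits their precision.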
